A study of Mus musculus with 10 samples.

Results

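Transcripts of the nuclear-encoded subunits of respiratory complex I were examined in mouse ventricular cardiomyocytes and whole hearts with and without a knockdown of VAChT. The genes were those whose symbol begins with Ndufa, Ndufb, Ndufc, Ndufs or Ndufv followed by a digit, together with Ndufab1. Assembly factors (Ndufaf genes) were left out. A probe set is a group of array probes whose signals are summarised as 1 value, and only probe sets annotated with 1 gene symbol were taken. There were 41 such probe sets, and the brightest for each gene gave 36 of the 19938 named genes on the array. Ndufb1 and Ndufb4, subunits that would also belong here, were not analysed here. The 36 genes lie on 14 chromosomes.

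VAChT, encoded by Slc18a3, is the transporter that loads acetylcholine into secretory vesicles. The 4 groups were wild-type (WT) and VAChT knockdown (KD) ventricular cardiomyocytes, with 3 arrays each, and WT and KD whole hearts, with 2 arrays each. All mice were labelled as untreated C57BL/6 males aged 3 months, and the series title describes the KD hearts as KDHOM. How the knockdown was made is not given in the sources used here. Each array carried RNA pooled from 2 samples, and the labels do not state whether different arrays drew on different animals. The p-values therefore rest on a spread between arrays that may be technical, and the small number of arrays limits the precision.

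Complex I takes electrons from NADH, passes them along a flavin and a chain of iron-sulphur clusters to ubiquinone, and pumps protons across the inner mitochondrial membrane. Its conserved core subunits do this work. The matrix arm holds the NADH site and the quinone site, and the membrane arm holds the proton pumps, whose core subunits are encoded by mitochondrial DNA. Accessory subunits surround the core and are needed to build or stabilise it. Heart muscle is packed with mitochondria. The genes were bright on these arrays: 35 of the 36 lay in the brightest 20% of all genes in cardiomyocytes, and 30 in hearts.

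Several properties of the arrays bear on the values below. Slc18a3 was near the middle of each array, at 6.04 to 6.37 log2 units in WT and 6.21 to 6.52 in KD cardiomyocytes. It was at 7.34 and 7.72 in WT hearts and 7.31 and 7.84 in KD hearts. The genotypes overlapped in both kinds of sample, so the targeted transcript gave no check of the labels. Array medians were 5.82 to 5.93 in cardiomyocytes and 7.25 to 7.31 in hearts, as after separate normalization of each set, and levels were compared only within a kind of sample. The defining markers of heart muscle were bright in both: the 13 cardiomyocyte markers had mean levels from 12.12 to 13.91 in cardiomyocytes and from 10.99 to 14.58 in hearts. KD heart replicate 1 stood apart, because its 12 T cell and thymocyte markers were a median of 2.90 log2 units above the WT mean, against -0.02 in KD heart replicate 2. The KD hearts correlated with each other at r = 0.979 over all probe sets and the WT hearts at 0.99, probe sets not being independent replicates.

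The windows upstream of the start site were compared among the genes, since the transcripts of one complex were followed together. RefSeq windows (GRCm38.p6) of 250 bases before the start were at hand for 32 of the 36 genes and had a median GC content of 57.6%, against 52.4% over all windows. Those shown are of Ndufc2 and Ndufs3, both lower in KD hearts below, and Ndufs5, the gene with the largest positive difference in KD cardiomyocytes. They cover chr7:97399753-97400002 on the plus strand, chr2:90904722-90904971 on the minus strand and chr4:123718187-123718436 on the minus strand, each written 5′ to 3′ in the direction of the gene. Capitals mark a motif of a factor known to act on respiratory chain genes, CGGAAG of ETS factors in Ndufs3 and AAGGTCA of estrogen-related receptors, read on the other strand, in Ndufs5.
Ndufc2: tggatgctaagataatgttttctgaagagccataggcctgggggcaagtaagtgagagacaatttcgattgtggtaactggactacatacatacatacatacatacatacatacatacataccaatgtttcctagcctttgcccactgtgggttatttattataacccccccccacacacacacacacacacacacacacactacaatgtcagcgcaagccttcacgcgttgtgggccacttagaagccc
Ndufs3: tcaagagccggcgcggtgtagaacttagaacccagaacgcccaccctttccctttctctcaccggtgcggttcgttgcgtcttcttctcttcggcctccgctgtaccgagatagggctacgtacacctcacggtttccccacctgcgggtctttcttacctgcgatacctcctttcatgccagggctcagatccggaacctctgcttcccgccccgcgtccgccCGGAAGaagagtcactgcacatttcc
Ndufs5: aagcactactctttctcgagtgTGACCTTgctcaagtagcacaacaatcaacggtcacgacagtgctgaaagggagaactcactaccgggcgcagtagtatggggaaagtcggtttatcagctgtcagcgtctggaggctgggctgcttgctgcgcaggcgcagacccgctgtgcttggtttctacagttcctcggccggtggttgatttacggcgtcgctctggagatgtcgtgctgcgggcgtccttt
Both strands were searched for these letters. The 32 genes had 34 windows, and a gene was counted once if any of its windows matched. CGGAAG was in 7 of the 32 genes (21.9%, against 15.3% of 27025 genes) and AAGGTCA in 2 (6.25%, against 4.70%). CGCATGCG, of NRF1, was in 2 (6.25%, against 1.75%), and AAGATGGC, of YY1, was in 0 (against 1.83%). The motif letters were chosen after a first look at matches in 5 of these windows, and a match is a description of the letters only.

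In cardiomyocytes most complex I genes were slightly higher in KD than in WT, and none passed the test. The difference, KD minus WT on the log2 scale, was positive in 31 of the 36 genes, with a median of 0.09 and a range from -0.10 to 0.33. Over all genes the median was 0 and 50% were higher. limma called 0 of the 36 genes and 0% of all genes at an adjusted p of 0.05, with 1 of the 36 and 419 of all genes at an unadjusted p under 0.05. The 1 gene was Ndufs5, against 0.988% of all genes that were higher at that level. Fitted on the cardiomyocyte arrays alone, limma put 0 of the 36 and 492 of all genes at that level. Every KD value exceeded every WT value for 4 genes (11.1%, against 2.99% of all genes), namely Ndufs3, Ndufv2, Ndufs7 and Ndufa12. The margin was small for Ndufa12, with a difference of 0.03, a highest WT value of 9.95 and a lowest KD value of 9.96. Every KD value was below every WT value for 0 (against 3.21%).

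Ndufs5, a small accessory subunit on the outer face of the proximal membrane arm (gene at chr4:123712710-123718186), read 8.81, 8.72 and 8.24 in WT cardiomyocytes and 8.84, 8.81 and 9.11 in KD. WT replicate 3 was the low array and KD replicate 3 the high one, and the KD replicate 2 value met that of WT replicate 1. Its difference was 0.33 with a standard error of 0.15 (95% interval 0.01 to 0.65), with a limma adjusted p of 1. A probe set that the annotation shares between Ndufs5 and its pseudogene was left out, and whether the one used also reads the pseudogene was not tested. Ndufa2, a matrix arm accessory subunit, had WT values of 10.79, 10.12 and 10.33 and KD values of 10.71, 10.54 and 10.83. The Ndufb7 values were 10.23, 10.09 and 9.65 in WT and 10.26, 10.08 and 10.33 in KD. Ndufb8 gave 10.82, 10.75 and 10.57 in WT and 10.80, 10.84 and 11.15 in KD. These 3 genes differed by 0.28, 0.23 and 0.22 in that order, and in each the genotypes overlapped. Ndufb7 and Ndufb8 are accessory subunits of the distal membrane arm.

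Apart from Ndufa4l2, described below, the lowest differences in cardiomyocytes were close to 0. Ndufv3, an accessory subunit beside the NADH site, read 9.39, 9.48 and 9.53 in WT and 9.28, 9.36 and 9.57 in KD, a difference of -0.06. Ndufs6, a zinc-binding matrix arm subunit, read 10.26, 9.95 and 10.02 in WT and 10.18, 9.99 and 10.01 in KD. Ndufv1, the flavin-binding core subunit, read 11.47, 11.67 and 11.74 in WT and 11.71, 11.64 and 11.49 in KD. Both gave a difference of -0.02 with intervals from -0.26 to 0.22 and from -0.23 to 0.20.

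By position in the complex, the cardiomyocyte medians were 0.08 for the 6 core genes (5 higher), 0.07 for the 9 matrix arm accessory genes (7 higher), 0.10 for the 9 of the proximal membrane arm (8 higher) and 0.11 for the 10 of the distal membrane arm and Ndufab1 (10 higher). A single WT array weighed on these values. WT replicate 3 held the lowest of the 6 values for 25 of the 36 genes, and WT replicate 1 held the highest for 14. The median over the 36 genes, relative to the WT mean, came to 0.15, 0.01 and -0.12 for WT. For KD it came to 0.08, 0.05 and 0.11, inside the WT range. Without WT replicate 3 the median difference was 0.03 with 24 genes higher, and without WT replicate 1 it was 0.15 with 33 higher. The core genes varied less between WT arrays, with medians of 0, 0.03 and -0.02, against 0.09, 0.05 and 0.08 in KD. Among cell markers, the 13 of cardiomyocytes had a median difference of 0, and the 12 of macrophages one of -0.24 with 11 lower (summed level, log2 of the sum of linear intensities, 9.16 to 9.94 in WT and 9.16 to 9.33 in KD). The 7 atrial markers had a median difference of -0.15 with 6 lower (sums of 11.20 to 12.73 in WT and 11.49 to 12.17 in KD). Relative to the WT mean they were at -0.51 in WT replicate 3, the array that was low for complex I genes, against 0.18 and 0.24 in the other WT arrays. The part of the macrophage and atrial markers in the complex I values was not tested.

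**Figure D1:**
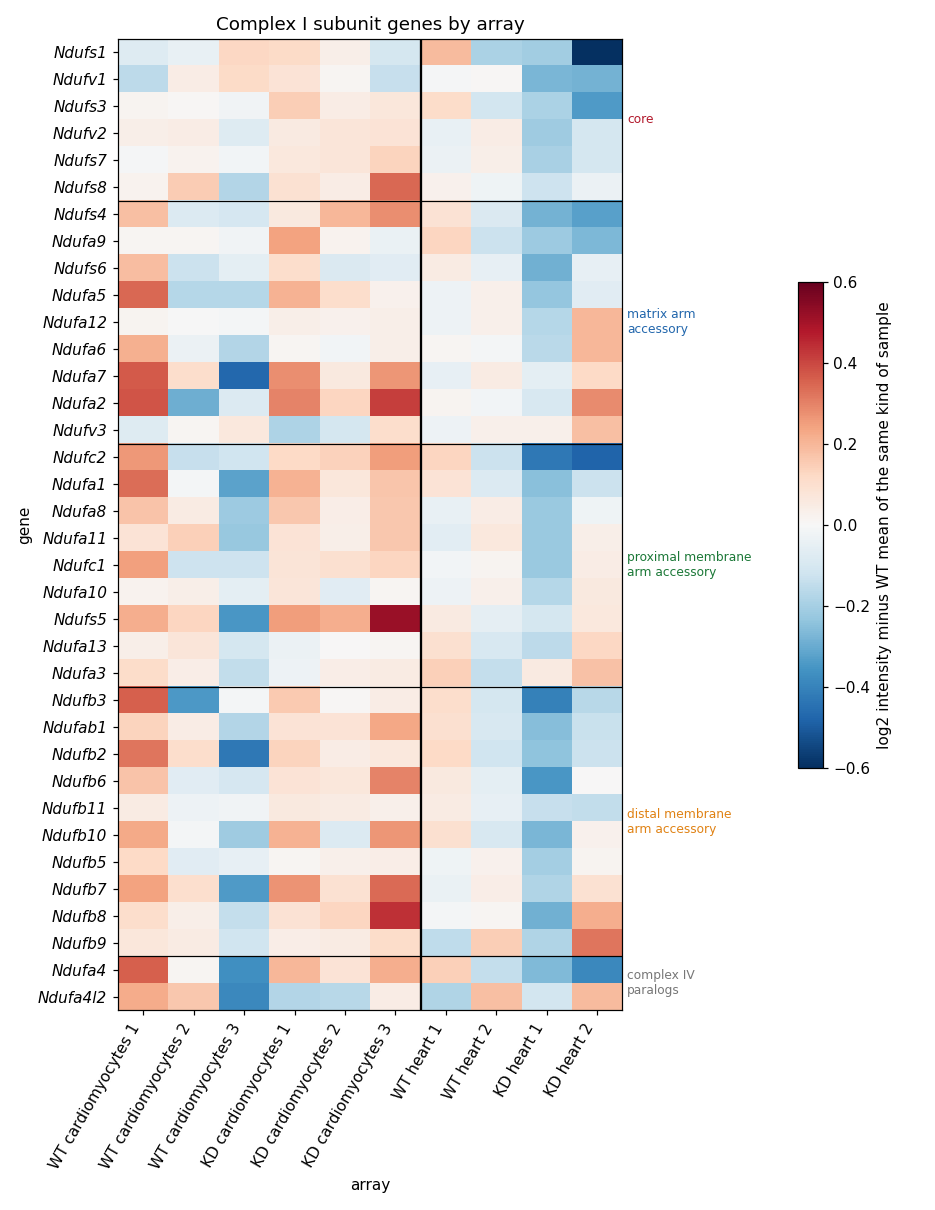
Each row is 1 complex I gene and each column 1 array, coloured by log2 intensity minus the WT mean of the same kind of sample (red above, blue below), with larger deviations than 0.6 drawn at the end of the colour scale. WT cardiomyocyte replicate 3 is blue for most genes, KD heart replicate 1 is blue for nearly all, and KD heart replicate 2 is blue for the 6 core genes and mixed for the rest.

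In whole hearts most of the same genes were lower in KD, and again none passed the test. The difference was negative in 28 of the 36 genes, with a median of -0.12 and a range from -0.45 to 0.12, whereas the median over all genes was 0.01 and 47.4% were lower. limma called 0 of the 36 genes (smallest adjusted p 0.95) and 0% of all genes (smallest 0.713), with 982 of all genes at an unadjusted p under 0.05. At that unadjusted level 5 of the 36 genes were lower and 0 higher, against 2.49% of all genes that were lower. Fitted on the heart arrays alone, limma put 1 of the 36 and 531 of all genes at that level. Both KD hearts lay below both WT hearts for 16 of the 36 genes (44.4%, against 15.4% of all genes) and above for 0 (against 14.2%). In bulk tissue, fewer cells of a type and less RNA per cell cannot be told apart.

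The median rested on KD heart replicate 1 and on how bright genes are treated. Without that array the median over the 36 genes was -0.01 with 18 lower, and without KD heart replicate 2 it was -0.21 with 34 lower; the lone KD array is then assumed to vary like the other groups. Over all genes the KD heart difference ran from 0.04 in the dimmest 20% to -0.07 in the brightest. With a smooth trend on brightness taken out, the median of the complex I genes was -0.01 with 18 lower. limma then put 1 of the 36 and 786 of all genes at an unadjusted p under 0.05.

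The 6 measured core subunits were lower in both KD hearts. Their median difference was -0.21, and the range ran from -0.44 to -0.08. With the trend on brightness taken out the median was -0.08 with 5 of 6 lower. Ndufv1 was then at -0.15, Ndufs3 at -0.14, Ndufv2 at -0.03, Ndufs7 at -0.02 and Ndufs8 at 0.01, whereas Ndufs1 was at -0.31. Ndufs1 also moved with the array left out. It was at -0.67 without KD replicate 1 and -0.21 without KD replicate 2. It was at -0.25 without WT replicate 1 and -0.64 without WT replicate 2.

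Ndufs1, the largest core subunit and a carrier of iron-sulphur clusters (chr1:63143592-63176822), read 12.71 and 12.33 in WT hearts and 12.31 and 11.85 in KD hearts. The KD values lay below the WT values, narrowly so for KD replicate 1. The means were 12.52 ± 0.27 and 12.08 ± 0.32 (SD, n = 2 each), and the difference of -0.44 (standard error 0.16, 95% interval -0.80 to -0.09) equals 26.5% less signal, with a limma adjusted p of 0.95.

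Ndufv1 (chr19:4007499-4012755) read 11.89 and 11.90 in WT hearts and 11.62 and 11.61 in KD hearts. The replicates were nearly equal here, and the genotypes did not overlap. Its difference was -0.28 (standard error 0.12, 95% interval -0.54 to -0.02), or 17.6% less signal, with a limma adjusted p of 0.962. Ndufs3, a core subunit of the quinone end of the matrix arm (chr2:90894627-90904721), read 12.06 and 11.84 in WT and 11.76 and 11.61 in KD. Its difference was -0.27 (95% interval -0.51 to -0.03), and its other probe set gave -0.30. The cardiomyocyte values of Ndufs3 were 12.15, 12.14 and 12.11 in WT and 12.28, 12.18 and 12.20 in KD, so there the KD arrays were above.

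The other 3 core genes had smaller differences in hearts. Ndufv2, the partner of Ndufv1 in the NADH-oxidising module, read 12.06 and 12.15 in WT and 11.89 and 12 in KD, a difference of -0.16. Ndufs7, which carries the iron-sulphur cluster next to ubiquinone, read 12.50 and 12.57 in WT and 12.34 and 12.43 in KD, a difference of -0.15. Ndufs8, another iron-sulphur subunit, read 10.37 and 10.32 in WT and 10.22 and 10.31 in KD, a difference of -0.08. All 3 intervals reached above 0, to 0.06, 0.05 and 0.21.

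In cardiomyocytes Ndufv2 read 12.33, 12.34 and 12.22 in WT and 12.35, 12.37 and 12.38 in KD. Ndufs7 read 13.20, 13.23 and 13.19 in WT and 13.27, 13.28 and 13.34 in KD. Both thus had every KD array above every WT array there, by small margins, with differences of 0.07 and 0.09. Ndufs1 read 11.31, 11.34 and 11.51 in WT and 11.50, 11.42 and 11.28 in KD. Ndufs8 read 11.72, 11.85 and 11.52 in WT and 11.79, 11.74 and 12.04 in KD. For this pair the genotypes overlapped, with differences of 0.02 and 0.16.

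**Figure D2:**
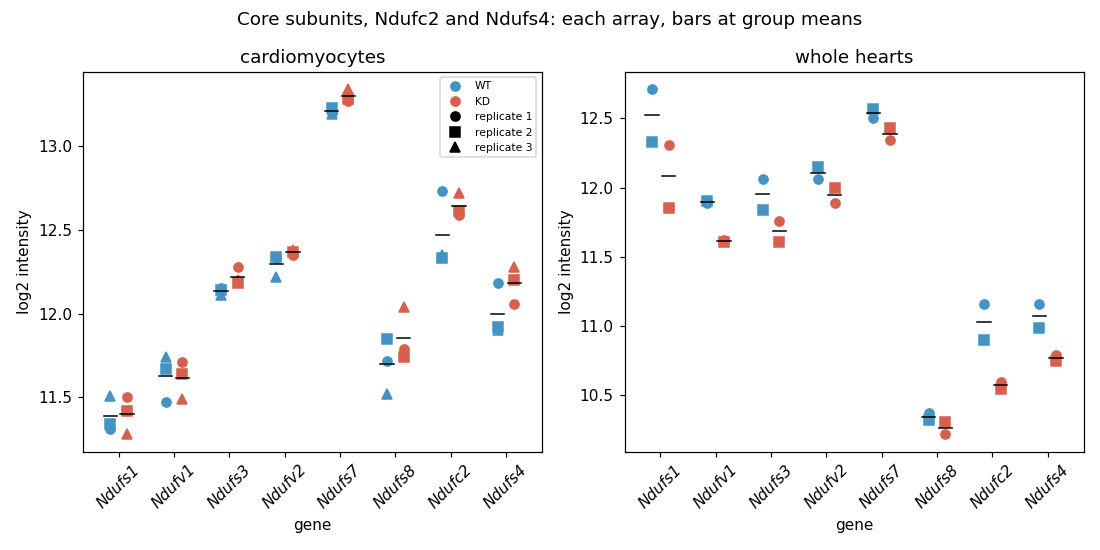
Log2 intensity of the 6 core genes, Ndufc2 and Ndufs4 in every array, cardiomyocytes on the left and whole hearts on the right, with WT in blue, KD in red, marker shape for the replicate and bars at group means. In hearts both KD values lie below both WT values for each of the 8 genes, narrowly so for Ndufs8 (10.31 in KD replicate 2 and 10.32 in WT replicate 2), while in cardiomyocytes the genotypes overlap for all but Ndufs3, Ndufv2 and Ndufs7.

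The 9 matrix arm accessory genes were divided in hearts, with 4 lower, 5 higher and a median of 0.02. The median was 0.12 without KD heart replicate 1 and 0.06 with the trend on brightness taken out, again with 4 lower. Ndufs4, a subunit of the NADH-oxidising module whose loss is a known cause of Leigh syndrome (chr13:114287795-114388094), read 11.16 and 10.99 in WT hearts and 10.79 and 10.75 in KD hearts. Both KD values were below both WT values. The difference was -0.30 (standard error 0.13, 95% interval -0.58 to -0.03), or 18.8% less signal, with a limma adjusted p of 0.95. It was -0.19 with the trend on brightness taken out. In cardiomyocytes Ndufs4 read 12.18, 11.92 and 11.90 in WT and 12.06, 12.20 and 12.28 in KD, a difference of 0.18 with overlapping genotypes. Ndufa9, which lies near the quinone site, and Ndufa5 were also lower in both KD hearts than in both WT hearts, with differences of -0.25 and -0.15.

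At the other end of this group, Ndufv3 read 9.15 and 9.21 in WT hearts and 9.21 and 9.36 in KD hearts, a difference of 0.11. Ndufa2 read 8.15 and 8.12 in WT and 8.04 and 8.42 in KD, a difference of 0.09. Ndufa6 read 10.42 and 10.40 in WT and 10.25 and 10.61 in KD, a difference of 0.02. For Ndufa2 and Ndufa6 the KD hearts lay on either side of the WT hearts, which placed the mean near the WT mean. Ndufs6 read 11.12 and 11.02 in WT hearts and 10.78 and 11.02 in KD hearts, a difference of -0.17. In cardiomyocytes Ndufa6 read 11, 10.75 and 10.61 in WT and 10.80, 10.77 and 10.82 in KD, a difference of 0.01.

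The membrane arm accessory genes were mostly lower in KD hearts, with a median of -0.09 for the proximal arm (8 of 9 lower) and -0.13 for the distal arm with Ndufab1 (9 of 10 lower). These directions turned without KD heart replicate 1, to medians of 0.05 (3 of 9 lower) and 0.01 (4 of 10 lower). With the trend on brightness taken out the medians were 0.05 (2 of 9 lower) and -0.04 (6 of 10 lower).

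Ndufc2, a subunit of the proximal membrane arm (chr7:97400003-97407800), had the lowest difference of the 36 genes. It read 11.16 and 10.90 in WT hearts and 10.60 and 10.55 in KD hearts. The KD hearts were close together and below both WT hearts. The difference was -0.45 (standard error 0.14, 95% interval -0.76 to -0.15), or 27.0% less signal, with a limma adjusted p of 0.95. In cardiomyocytes it read 12.73, 12.33 and 12.35 in WT and 12.59, 12.61 and 12.72 in KD, with WT replicate 1 the highest of the 6 arrays.

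Both KD hearts lay below both WT hearts also for Ndufa1 of the proximal arm and for Ndufb3, Ndufb2, Ndufb11 and Ndufab1 of the distal group. Ndufab1 is the mitochondrial acyl carrier protein, which also serves fatty acid synthesis in mitochondria. Ndufa3, of the proximal arm, had the highest difference of the 36 genes in hearts: it read 11.94 and 11.65 in WT and 11.85 and 11.97 in KD, a difference of 0.12 (95% interval -0.16 to 0.40). Ndufb9, of the distal arm, read 11.72 and 12.02 in WT and 11.69 and 12.19 in KD, a difference of 0.07. In both genes the genotypes overlapped. In cardiomyocytes Ndufa3 read 11.44, 11.37 and 11.18 in WT and 11.30, 11.37 and 11.38 in KD, a difference of 0.02. Ndufb9 read 12.20, 12.18 and 12.01 in WT and 12.17, 12.18 and 12.24 in KD, a difference of 0.07. The low array in each was WT replicate 3.

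Ndufs5 overlapped between the genotypes in hearts, at 9.80 and 9.69 in WT and 9.64 and 9.81 in KD, a difference of -0.02. Ndufb7 read 11 and 11.08 in WT and 10.86 and 11.13 in KD. Ndufb8 read 10.40 and 10.42 in WT and 10.12 and 10.63 in KD. Ndufb8 had the widest spread of the 36 genes between the KD hearts, with an SD of 0.36, and its KD values lay on either side of WT.

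The symbols Ndufa4 and Ndufa4l2 fall under the naming rule, although Ndufa4 is now known as a subunit of cytochrome c oxidase (complex IV) and Ndufa4l2 is its hypoxia-induced relative. Ndufa4 read 12.88 and 12.59 in WT hearts and 12.47 and 12.35 in KD hearts. Both KD values were lower, and the difference was -0.33 (95% interval -0.72 to 0.07). Ndufa4l2 read 8.43 and 8.79 in WT hearts and 8.5 and 8.80 in KD hearts, a difference of 0.04 with overlap. In cardiomyocytes Ndufa4 read 11.79, 11.44 and 11.06 in WT and 11.63, 11.51 and 11.65 in KD. Ndufa4l2 read 7.06, 7 and 6.45 in WT and 6.66, 6.67 and 6.88 in KD. WT replicate 3 was the lowest array for both genes, and their differences were 0.17 and -0.10.

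**Figure D3:**
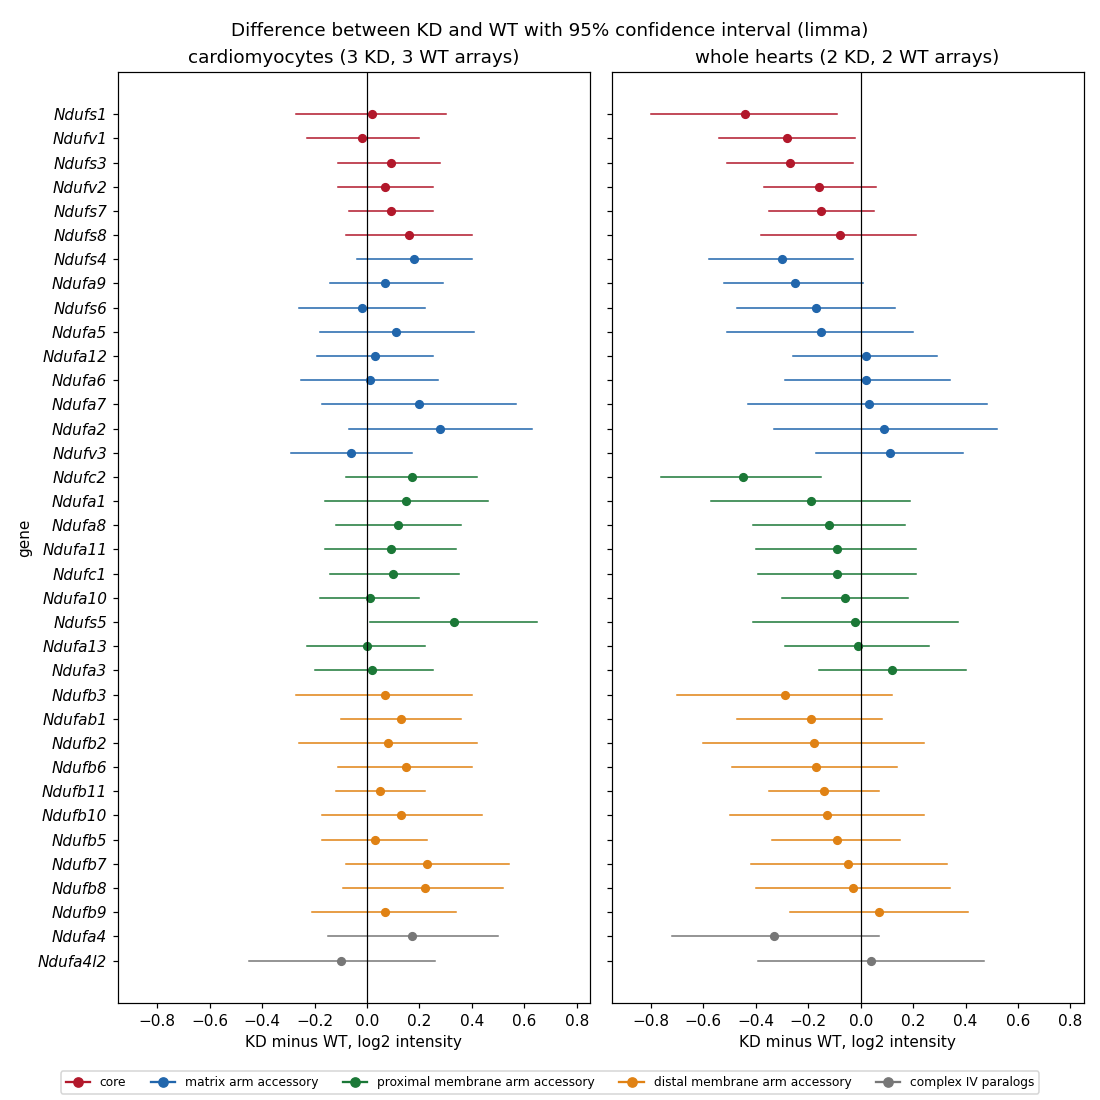
KD minus WT difference in log2 intensity for each of the 36 genes, with the 95% confidence interval from limma, in cardiomyocytes (left) and whole hearts (right), coloured by position in the complex. In cardiomyocytes 31 points lie above 0 and 1 interval excludes it. In hearts 28 points lie below 0 and 5 intervals exclude it. The intervals use the spread within groups of all 10 arrays.

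The KD hearts differed in which subunits were low. KD heart replicate 1 was below both WT hearts for 33 of the 36 genes (91.7%, against 42.1% of all genes) and above both for 0 (against 26.7%). KD heart replicate 2 was below for 16 (44.4%, against 30.5%) and above for 14 (38.9%, against 45.8%). The 6 core genes were below both WT hearts in each, with medians of -0.21 and -0.19 relative to the WT mean. Of the 28 accessory genes, 26 were below in replicate 1 and 9 in replicate 2, with medians of -0.22 and 0.03. Replicate 2 had 13 accessory genes above both WT hearts. No test of the core genes against the accessory genes was made.

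Cell type markers also differed between the hearts. The 13 cardiomyocyte markers had a median difference of -0.14 and were at -0.14 in each KD heart. Their summed level was 17.30 to 17.40 in WT and 17.23 to 17.24 in KD. The 9 fibroblast markers had a median difference of -0.29 (9 of 9 lower; sums of 14.41 to 14.49 in WT and 14.21 to 14.26 in KD), and the 8 endothelial markers one of -0.21 (8 of 8 lower; 13.34 to 13.51 and 13.20 to 13.27). The 8 smooth muscle and pericyte markers were at -0.14 (7 of 8 lower; 13.41 to 13.59 and 13.21 to 13.29), and the 6 adipocyte markers at -0.22 (6 of 6 lower; 12.24 to 12.35 and 11.78 to 12). The 7 atrial markers had a median difference of -0.72 with 6 of 7 lower (sums of 14.02 to 14.12 and 12.96 to 13.89). They were at -0.24 in KD replicate 1 and -1.24 in KD replicate 2. The 12 macrophage markers had a median difference of -0.03 with 6 of 12 lower (sums of 12.70 to 12.98 and 12.78 to 12.90). The 5 blood markers were at 0.55 (5 of 5 higher; 11.91 to 12.72 and 12.93 to 13.25). The T cell and thymocyte sum was 10.44 to 10.78 in WT and 10.59 to 13.84 in KD. None of these lists had a gene past the adjusted threshold, and their part in the complex I values was not tested.

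The difference between the KD effects, hearts minus cardiomyocytes, was negative for 31 of the 36 genes. The median was -0.24, against 0.01 over all genes, of which 48.8% were negative. It was -0.14 both without KD heart replicate 1 and with the trend on brightness taken out, and -0.16 without WT cardiomyocyte replicate 3. limma called 0 of the 36 genes and 0% of all genes (smallest adjusted p 0.999), with 696 of all genes at an unadjusted p under 0.05. At that unadjusted level 4 of the 36 genes were negative, against 1.74% of all genes: Ndufc2 at -0.62 (standard error 0.18, 95% interval -1.02 to -0.23), Ndufs4 at -0.48, Ndufs1 at -0.46 and Ndufs3 at -0.36. Ndufa4, at -0.50, had the second lowest difference but an interval that reached above 0, from -1.01 to 0.02. The highest values were 0.17 for Ndufv3, 0.13 for Ndufa4l2, 0.10 for Ndufa3 and 0.01 for Ndufa6.

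Of the 36 genes, 25 were higher in KD cardiomyocytes and lower in KD hearts (69.4%, against 24.0% of all genes). Another 3 were lower in both, 6 were higher in both and 2 were lower in cardiomyocytes and higher in hearts. The core genes were all negative in this contrast, between -0.46 and -0.23.

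Genes that work with complex I had values of the same kind. Among 14 assembly factors, which build the complex and leave it, 13 were higher in KD cardiomyocytes (median 0.11) and 11 were lower in KD hearts (median -0.13). Their cardiomyocyte medians relative to the WT mean were 0.14, -0.13 and -0.02 in WT and 0.14, 0 and 0.15 in KD. Ndufaf1, an early assembly factor of the membrane arm, read 9.84 and 9.68 in WT hearts and 9.25 and 9.23 in KD hearts, a difference of -0.52. Foxred1, another assembly factor, read 10.07 and 9.92 in WT and 9.61 and 9.38 in KD, a difference of -0.49 with a limma adjusted p of 0.94. Neither passed the test. ND3, the only mitochondrially encoded subunit measured here, differed by -0.06 in both kinds of sample.

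Of 40 genes of complexes II to V, 36 were higher in KD cardiomyocytes (median 0.08) and 35 were lower in KD hearts (median -0.16), with 0 called. Their cardiomyocyte medians relative to the WT mean were 0.10, 0.02 and -0.12 in WT and 0.12, 0.06 and 0.07 in KD. WT replicate 3 was thus the low array here as for complex I. Uqcrfs1, the Rieske iron-sulphur protein of complex III, read 10.88 and 10.67 in WT hearts and 10.33 and 10.29 in KD hearts, a difference of -0.46 (adjusted p 0.94 by limma). Sdhd, a membrane anchor of complex II, differed by -0.41. KD heart replicate 1 was below both WT hearts for 35 of these 40 genes (87.5%, against 42.1% of all genes). KD heart replicate 2 was below for 26 (65%, against 30.5%) and above for 9 (22.5%, against 45.8%). The 13 citric acid cycle genes, which feed NADH to complex I, had a median of 0.03 in cardiomyocytes and were all lower in hearts (median -0.28, 0 called, 8 at an unadjusted p under 0.05 against 2.49% of all genes). Relative to the WT mean they were at -0.22 and -0.23 in the KD hearts.

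**Figure D4:**
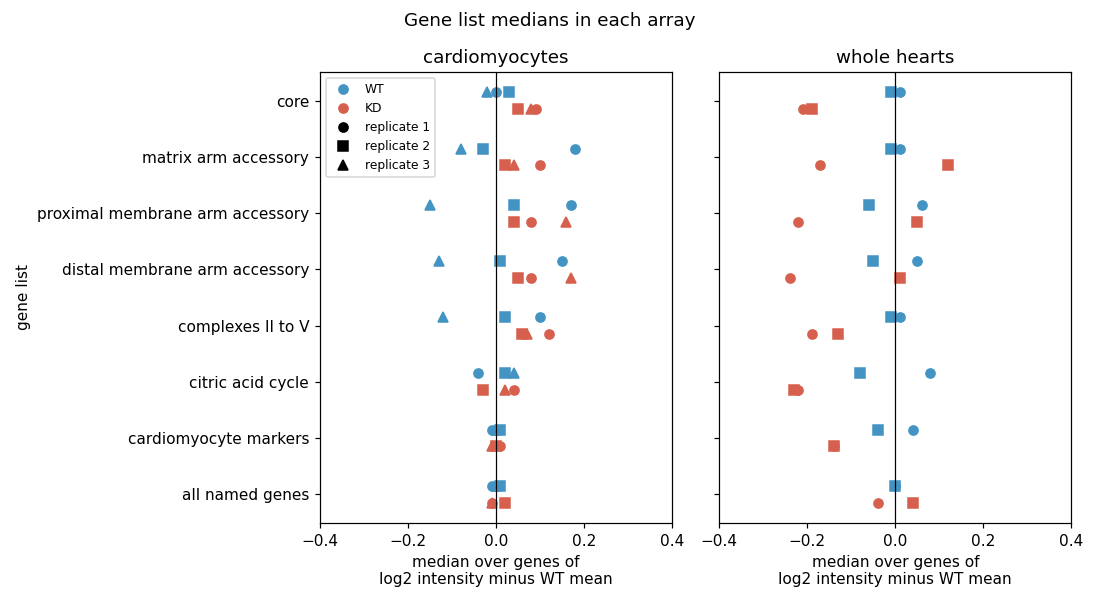
Median over the genes of each list of log2 intensity minus the WT mean, for every array, in cardiomyocytes (left) and whole hearts (right); colour gives the genotype and marker shape the replicate. In hearts both KD points of the core genes, of complexes II to V, of the citric acid cycle and of the cardiomyocyte markers lie left of the WT points. The KD points of complexes II to V are at -0.19 and -0.13. The KD points of the accessory groups are apart, as at -0.17 and 0.12 for the matrix arm.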

How the data were processed

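Biotin-labelled cDNA was hybridised to Affymetrix arrays. Per the labels' protocols, cardiomyocyte RNA was labelled after an Ambion and an Affymetrix manual and heart RNA after one from Affymetrix, so labelling and kind of sample cannot be told apart. The authors deposited log2 intensities of 35556 probe sets, made with RMA and Partek per the submitters' processing notes, with versions not given in the sources used here. This method corrects background, equalises the arrays it treats together and summarises probes, and it compresses differences of dim genes. The annotation supplied with the probes gave 1 symbol to 21789 probe sets, several to 1621 (not used) and none to 12146. It joined Ndufs5 or Ndufb4 to another symbol on 3 of the unused ones. Columns without a matching sample numbered 0. Detection calls and probe positions were not used here.

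All 10 arrays were fitted with limma 3.58.1 (R 4.3.3) as 4 group means with an intensity trend in eBayes (6 residual and 6.81 prior degrees of freedom). Two-sided p-values were adjusted over 19938 genes (Benjamini-Hochberg, 0.05), with no filter on dim genes. A summed marker level is log2 of the sum of linear intensities. The code was tested on simulated data. The genes examined and all gene lists were chosen with earlier results of these data known. Values in every array are given for core subunits, Ndufs4, Ndufa4, Ndufa4l2 and the 4 lowest and 4 highest genes of each comparison, and other lists by their smallest unadjusted p, of which a subset is printed. Alternatives were other scalings, the mean of probe sets, a filter on dim genes, other variance models, array weights, single-tissue fits, a replicate block, removal of an intensity trend (loess, span 0.3) and leaving out each array.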

Additional observations from a re-analysis of the deposited data

Results flagged for a closer look

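Core subunit genes Ndufs3, Ndufs7 and Ndufv2 had all 3 KD arrays above all 3 WT arrays in cardiomyocytes and both KD arrays below both WT arrays in hearts, patterns that 2.99% and 15.4% of all genes showed in each kind of sample on its own. The share of all genes with both patterns together was not counted. The differences between their KD effects, hearts minus cardiomyocytes, were -0.36, -0.24 and -0.23, and the limma test of that difference gave an adjusted p of 0.999 for each. With the trend on brightness taken out these differences were -0.21, -0.08 and -0.08. The heart differences were then -0.14, -0.02 and -0.03.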

How the results depend on the processing

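No complex I gene passed the adjusted threshold in any comparison under any alternative that was run. In cardiomyocytes the median difference stayed between 0.03 and 0.15, and the number of lower genes was 8 with quantile normalization of all arrays and 3 to 12 with an array left out. In hearts the median was -0.01 with the intensity trend removed and ran from -0.21 to -0.01 with an array left out; the number lower was 18 and ran from 18 to 34. Under that removal 5 of the 6 core genes were lower (median -0.08), and they were 6 of 6 without either KD heart (-0.19 and -0.21). Over all genes the number called in hearts ran from 0 to 303 with an array left out, 303 being without KD replicate 2, 2 without WT replicate 1 and 1 without KD replicate 1. In the difference between the effects it ran from 0 to 237, and its complex I median from -0.32 to -0.14. Whether replicate numbers pair the WT and KD arrays was not tested. Deviations of arrays with the same number correlated at 0.152, 0.131 and -0.0521 in cardiomyocytes. In hearts the value was 0.234, which with 2 arrays per group is the same for both numbers. With the replicate block limma called 1 gene in hearts and 0 complex I genes. Of the named genes, 6 of 15 in cardiomyocytes, 5 of 14 in hearts and 3 of 8 in the difference changed sign under some alternative. The 95% interval of a complex I gene reached a median of 0.25 to either side in cardiomyocytes and 0.30 in hearts, and no difference of the 36 genes, the lowest being -0.45 for Ndufc2 in hearts, passed the adjusted threshold.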

Other observations

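The 77 measured mitochondrial ribosomal protein genes, whose products translate the subunits encoded by mitochondrial DNA, were also mostly higher in KD cardiomyocytes (67 of 77, median 0.12) and lower in KD hearts (60 of 77, median -0.10), with 0 called by limma and 4 and 6 at an unadjusted p under 0.05 in those directions, against 0.988% and 2.49% of all genes. Relative to the WT mean, their medians in the KD hearts were -0.16 and -0.02. In cardiomyocytes those medians were 0.18, -0.03 and -0.14 in WT and 0.13, -0.02 and 0.18 in KD, with WT replicate 3 again the lowest. The 11 regulators of respiratory chain genes were divided, with medians of -0.04 in cardiomyocytes and -0.09 in hearts. Ppara, a receptor that drives fatty acid oxidation genes, read 9.11 and 8.90 in WT hearts and 8.75 and 8.73 in KD hearts, a difference of -0.27 that did not pass (limma adjusted p of 1). Gabpa, an ETS factor subunit, differed by -0.20 in cardiomyocytes and -0.10 in hearts.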
